A study of Mus musculus with 36 samples.

Results

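The genes described here are 10 genes of the smooth muscle program, taken from the 24411 genes in the count tables of cultured mouse mesenchymal stem cells (MSCs). They are Acta2, Tagln, Myh11, Cnn1, Actg2, Lmod1, Myl9 and Des, which encode parts of the contractile apparatus or its cytoskeleton, and Myocd and Prdm6, which encode nuclear regulators. The genes were picked by name with their levels in these libraries already known, so their levels and their differences between tissues are given as a description, with no test. All 10 genes passed the filter on low counts (CPM, the counts scaled to library size, of at least 1 in at least 2 libraries), as did 12509 genes in total.

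The cells came from untreated 8-week-old C57BL6/J mice and from 4 sources: femoral bone marrow (fBM-MSC), vertebral bone marrow (vBM-MSC), adipose tissue (A-MSC) and lung, called pulmonary (P-MSC). Bone was crushed to free the marrow cells, while adipose and lung tissue was minced and digested with collagenase. All cultures were expanded on collagen-coated dishes in MesenCult medium for up to 3 passages, and the medium of all groups contained a Rock inhibitor, an agent that blocks a kinase of the actin and myosin pathway. RNA was measured with Smart-seq2, a full-length and unstranded RNA-seq method, in 3 fBM-MSC, 2 vBM-MSC, 3 A-MSC and 3 P-MSC libraries; the third vBM-MSC library was not analysed here. Chromatin accessibility was measured by ATAC-seq, with 1 pooled peak list per source. The libraries held between 19569650 and 40517739 counts, and the lowest total belonged to fBM-MSC replicate 1. The 4 sources were taken from the same 3 mice, and which libraries share a mouse is not given in the sources used here.

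Smooth muscle cells contract when myosin pulls on filaments of smooth muscle actin, a step switched on by phosphorylation of the myosin light chain. Most genes of the apparatus carry binding sites, called CArG boxes, for serum response factor (Srf), which works with the coactivator myocardin (Myocd) or with the myocardin-related factors Mrtfa and Mrtfb. The last 2 factors move into the nucleus when actin polymerises, and cultured fibroblasts on stiff surfaces are also known to express Acta2 and Tagln. Prdm6 is a member of the PR domain family of nuclear proteins and is known from vascular smooth muscle, where it has been linked to the restraint of the contractile state.

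Acta2, alpha smooth muscle actin, was among the most abundant of these mRNAs and differed about 10.7-fold between the highest and the lowest source. Its level in TPM (transcript abundance corrected for length and scaled to library size) was 8429, 8453 and 8060.4 in the 3 A-MSC libraries and 5771 and 4257 in the vBM-MSC libraries. It was 2885, 3311 and 3244 TPM in P-MSCs and 821, 809.8 and 702 TPM in fBM-MSCs. The 4 sources did not overlap, and the order was A-MSC, vBM-MSC, P-MSC, fBM-MSC. Against the mean of the other 3 sources, the fitted log2 difference was 1.97 ± 0.11 (SE) in A-MSCs, -0.16 ± 0.12 in P-MSCs and -2.68 ± 0.14 in fBM-MSCs. For vBM-MSCs it was 0.87 ± 0.13, with 0.52 without replicate 1 and 1.15 without replicate 2.

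Actg2, gamma smooth muscle actin, known from the gut and other visceral muscle, followed the same order. It stood at 1915, 1841 and 1866 TPM in A-MSCs, at 1104 and 901 TPM in vBM-MSCs, at 297, 432 and 443 TPM in P-MSCs, and at 132, 33.2 and 51.2 TPM in fBM-MSCs. No 2 sources overlapped, and fBM-MSC replicate 1 stood above its group. The log2 difference was 2.75 ± 0.31 in A-MSCs and -3.60 ± 0.42 in fBM-MSCs. Without fBM-MSC replicate 1 the latter was -4.41.

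**Figure D1:**
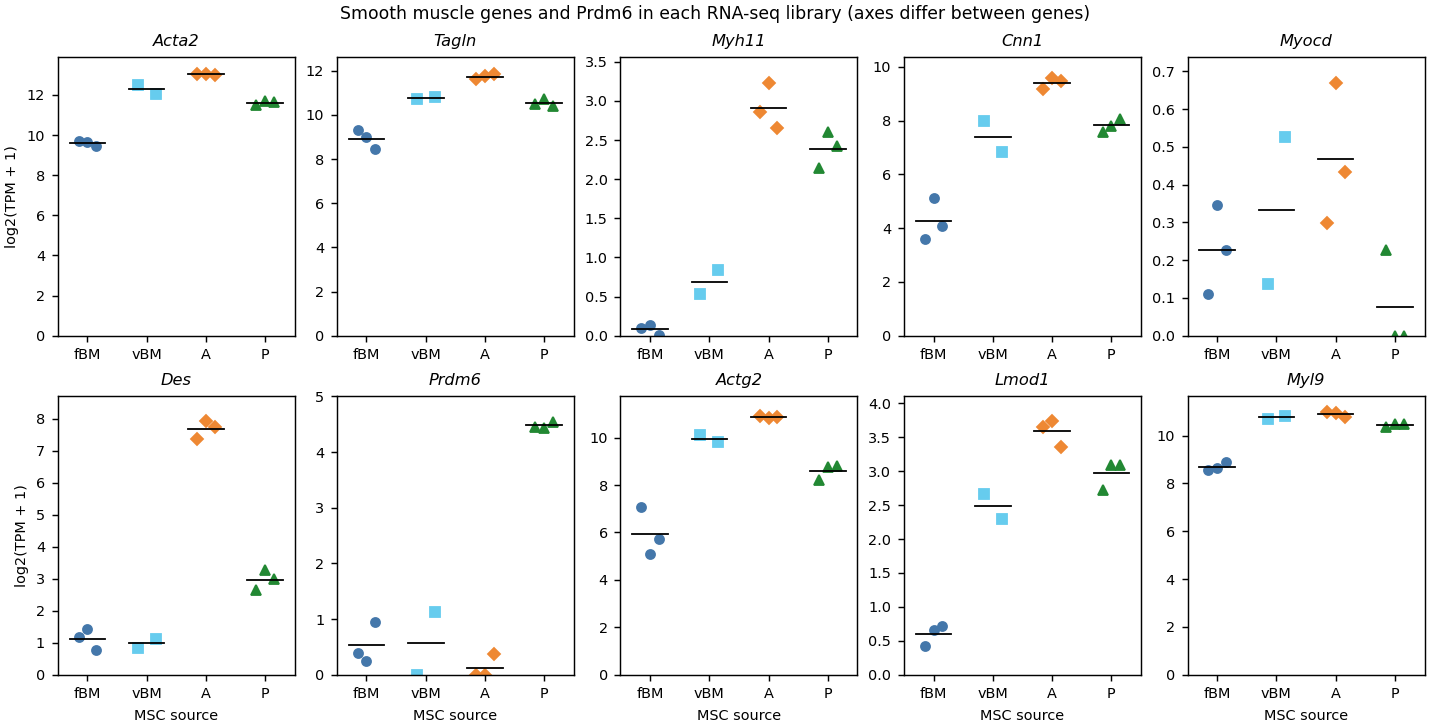
Level of each of the 10 genes as log2(TPM + 1) in every RNA-seq library, by MSC source; each point is 1 library, the black line is the mean of the source, and the vertical axes start at 0 and differ between genes. A-MSCs hold the highest mean for 9 of the 10 genes, Prdm6 is high only in the 3 P-MSC libraries (20.6 to 22.3 TPM), and Myocd is at most at 0.59 TPM in any library.

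Tagln, transgelin or SM22, is an actin-binding protein often used as an early smooth muscle marker. Its level was 3142, 3437 and 3682 TPM in A-MSCs, 1682 and 1816 TPM in vBM-MSCs, 1428, 1693 and 1338 TPM in P-MSCs, and 632, 514 and 352 TPM in fBM-MSCs. A-MSCs lay above and fBM-MSCs below all other libraries, while vBM-MSCs and P-MSCs overlapped. The log2 difference was 1.78 ± 0.14 in A-MSCs and -2.02 ± 0.17 in fBM-MSCs.

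Myl9, the regulatory light chain of smooth muscle myosin, varied least among the contractile genes. It stood at 2009, 1992 and 1727 TPM in A-MSCs and at 1662 and 1796 TPM in vBM-MSCs, 2 groups that overlapped. It was 1316, 1424 and 1430.4 TPM in P-MSCs and 375, 401 and 472 TPM in fBM-MSCs. The gap of fBM-MSCs to the other sources was -1.97 ± 0.10 on the log2 scale, and that of A-MSCs was 1.07 ± 0.09.

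Cnn1, calponin 1, which binds actin and slows the myosin cycle, was 579, 761 and 717 TPM in A-MSCs and 193, 221 and 269 TPM in P-MSCs. The vBM-MSC libraries were far apart, at 254 and 112 TPM, on either side of some P-MSC libraries. The fBM-MSC libraries held 10.98, 34.0 and 15.9 TPM. A-MSCs again lay above all other libraries and fBM-MSCs below them, with log2 differences of 2.98 ± 0.29 and -3.91 ± 0.40.

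Myh11, the heavy chain of smooth muscle myosin and the most restricted marker of the mature cell, was low in all libraries. It reached 6.24, 8.38 and 5.28 TPM in A-MSCs and 3.41, 5.05 and 4.38 TPM in P-MSCs, against 0.45 and 0.79 TPM in vBM-MSCs and 0.07, 0.10 and 0.01 TPM in fBM-MSCs. The sources did not overlap, and here P-MSCs, not vBM-MSCs, came second. In fBM-MSCs the gene rested on 6, 15 and 1 counts, against 858 to 1497 counts in A-MSCs. Lmod1, leiomodin 1, which starts new actin filaments, shared this order. Its TPM was 11.6, 12.4 and 9.25 in A-MSCs, 5.63, 7.5 and 7.5 in P-MSCs, 5.36 and 3.92 in vBM-MSCs, and 0.34, 0.58 and 0.64 in fBM-MSCs. The vBM-MSC and P-MSC libraries were close but did not overlap.

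Des, desmin, the intermediate filament of muscle cells, had the widest range of the contractile genes. It stood at 163, 245 and 216 TPM in A-MSCs, at 5.33, 8.61 and 6.94 TPM in P-MSCs, at 0.80 and 1.18 TPM in vBM-MSCs, and at 1.28, 1.68 and 0.70 TPM in fBM-MSCs. The mean of A-MSCs was 29.9 times that of P-MSCs, and the marrow sources overlapped. The A-MSC difference was 6.81 ± 0.22 on the log2 scale, that of vBM-MSCs -3.63 ± 0.33. Thus vBM-MSCs, second for Acta2, Actg2, Tagln and Myl9, were at the bottom for Des beside fBM-MSCs.

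Across the 10 genes, the lowest A-MSC library lay above every library of the other sources for 7 genes (Acta2, Tagln, Myh11, Cnn1, Des, Actg2 and Lmod1), a pattern seen for 4.32% of all genes tested. The highest fBM-MSC library lay below all others for 7 genes (Acta2, Tagln, Myh11, Cnn1, Actg2, Lmod1 and Myl9), against 9.09% of all genes tested. No gene of the 10 had vBM-MSCs above all others (7.35% of all genes tested), A-MSCs below all others (7.77%) or P-MSCs below all others (8.17%). Since the genes were picked with these levels known, nothing is read from these counts. The summed TPM of the 10 genes was 16255 to 16751 in A-MSCs, 8889.6 and 10480.2 in the vBM-MSC libraries, 6154 to 7122 in P-MSCs and 1595 to 1974 in fBM-MSCs. In bulk RNA, fewer cells that express a gene and less RNA per cell cannot be told apart.

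Myocd, the coactivator that defines the smooth muscle state, was near the limit of detection in every source. It was 0.23, 0.59 and 0.35 TPM in A-MSCs, 0.10 and 0.44 TPM in vBM-MSCs, 0.08, 0.27 and 0.17 TPM in fBM-MSCs, and 0.17, 0 and 0 TPM in P-MSCs. All neighbours in the order overlapped, and the highest count in any library was 81. No order among the sources could be read at this depth: the highest mean was that of A-MSCs, and without vBM-MSC replicate 1 it was that of vBM-MSCs.

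Prdm6 departed from all other genes of the group. Its level was 21.0, 20.6 and 22.3 TPM in the P-MSC libraries, or 1414, 1067 and 1287 counts. It was 0, 0 and 0.29 TPM in A-MSCs, 0 and 1.18 TPM in vBM-MSCs, and 0.31, 0.19 and 0.94 TPM in fBM-MSCs, with at most 68 counts in a library. The mean of P-MSCs (21.3 ± 0.88 TPM, SD, n = 3) was 36.1 times that of vBM-MSCs, the next source, whose mean rests on 1 library at 0 and 1 at 1.18 TPM. A level above all other libraries in P-MSCs was common in these data, at 20.1% of all genes tested. The fitted log2 difference of P-MSCs was 5.96 ± 0.77, and ranged from 5.65 without vBM-MSC replicate 1 to 8.62 without vBM-MSC replicate 2, which leaves vBM-MSCs at a count of 0.

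Among the other 14 genes of the PR domain family on the list, 6 passed the filter on low counts. Of these, 2 were higher in P-MSCs than in the mean of the other sources (edgeR quasi-likelihood test with Benjamini-Hochberg adjustment over all genes tested), where 22.3% of all genes tested were higher and 22.3% lower. Mecom, a zinc finger protein known from blood stem cells and lung development, stood at 5.62, 5.83 and 5.63 TPM in P-MSCs and at most at 1.59 TPM elsewhere, and rose by 3.34 ± 0.61 on the log2 scale (adjusted p = 0.00103). Prdm4 was 17.4, 14.5 and 12.5 TPM in P-MSCs and 7.31 to 13.8 TPM in the other libraries, a difference of 0.46 ± 0.15 (adjusted p = 0.0251). Prdm2, which is also known as RIZ, was lower in A-MSCs by the same test, with a log2 difference of -0.70 ± 0.20 (adjusted p = 0.0208). Prdm15 (0.23 to 1.24 TPM) and Prdm16 (0.15 to 1.06 TPM) passed the test in none of the 4 comparisons of a source with the rest. The remaining 8, Prdm1, Prdm8, Prdm9, Prdm10, Prdm11, Prdm12, Prdm13 and Prdm14, did not pass the filter, and the last 3 were at 0 in all 11 libraries.

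The genes whose log2(TPM + 1) followed that of Prdm6 most closely over the 11 libraries were Mki67, Mgl2, Pcnt, Ddx56 and Prrc2a, with Pearson's r between 0.979 and 0.982. Each was highest in P-MSCs: Mki67, a proliferation marker, had a mean of 5.98 TPM in P-MSCs and at most 0.52 TPM in the other sources, and Mgl2, a lectin known from macrophages, had 14.1 TPM against at most 0.01. Prrc2a had 7.18 against at most 4.21, and the gap was smaller for Ddx56 (29.8 against at most 20.8 TPM). Among the genes most like Acta2 were Myl6, Nppb, A730020M07Rik and Csrp1, with r between 0.974 and 0.990. Myl6, the essential light chain that pairs with Myl9, rose from a mean of 2234 TPM in fBM-MSCs to 4281 TPM in A-MSCs, while Nppb, a natriuretic peptide, went from 1.49 to 55.1 TPM and Csrp1, an actin-bound LIM protein, from 152 to 1305 TPM. These r describe 11 points in 4 clusters of libraries made from the same mice, and carry no test.

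The 4 remaining actin genes place these levels among all actin mRNA. Acta2 made up 18.6 ± 0.57% (SD, n = 3) of the summed TPM of the 6 actin genes in A-MSCs, 16.5 ± 1.27% (n = 2) in vBM-MSCs, 9.24 ± 0.70% (n = 3) in P-MSCs and 4.80 ± 0.41% (n = 3) in fBM-MSCs. Actg2 added 4.19 ± 0.15%, 3.31 ± 0.02%, 1.15 ± 0.24% and 0.43 ± 0.26% in the same order. Most of the rest was cytoplasmic actin, Actb and Actg1, which was itself lowest in fBM-MSCs. Actb was 7796 to 11493 TPM in fBM-MSCs and 22159 to 23486 TPM in A-MSCs, with log2 differences of -0.97 ± 0.13 (adjusted p = 0.000166) and 0.74 ± 0.12 (adjusted p = 0.000999) by the edgeR test. Actg1 differed by -0.68 ± 0.11 in fBM-MSCs (adjusted p = 0.000523) and by 0.68 ± 0.10 in A-MSCs (adjusted p = 0.000612).

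Acta1, skeletal muscle actin, was 871, 1028 and 856 TPM in A-MSCs and 710.2, 736 and 778 TPM in P-MSCs, but 19.3, 11.7 and 8.54 TPM in fBM-MSCs. The 2 vBM-MSC libraries were far apart, at 495 and 54.5 TPM. It was higher in A-MSCs (log2 difference 2.83 ± 0.45, edgeR adjusted p = 0.000908) and in P-MSCs (2.15 ± 0.45, adjusted p = 0.00235), and lower in fBM-MSCs (-5.45 ± 0.67, adjusted p = 9.74e-05). Actc1, cardiac actin, did not exceed 1.86 TPM and was at 0 in all marrow libraries. The estimated counts of Acta2 were fractional in all 11 libraries, those of Tagln in 4, of Myl9 in 3 and of Myh11 in 2, and those of Actg2 in none. RSEM gives fractional counts where it divides reads among several matches, and which genes shared reads with Acta2 was not tested. Exons of Tagln overlap those of Pcsk7 on the opposite strand (5.19 to 9.51 TPM) and exons of Des those of Gm15179 (at most 0.19 TPM). Reads of such pairs cannot be told apart without strand.

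**Figure D2:**
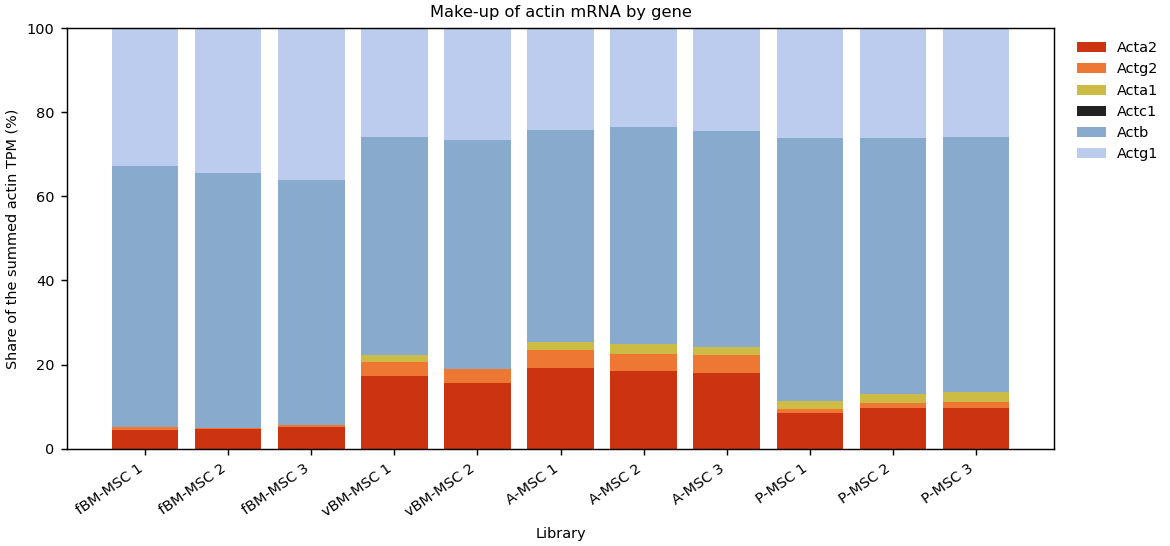
Share of the summed TPM of 6 actin genes that falls to each gene, in percent, in each of the 11 RNA-seq libraries; bars start at 0 and add up to 100. Acta2 takes 18.0 to 19.1% in A-MSCs, 15.6 and 17.3% in vBM-MSCs, 8.43 to 9.74% in P-MSCs and 4.42 to 5.24% in fBM-MSCs.

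A wider set of 42 genes of the smooth muscle apparatus, of which 37 passed the filter on low counts, was tested with all genes. Of the 37, 35 differed among the 4 sources, against 60.6% of all genes tested. In A-MSCs, 23 were higher and 2 lower than the mean of the other sources, where 16.0% of all genes tested were higher and 13.9% lower. The median log2 difference of the set was 0.77, and that of all genes tested -0.004. In fBM-MSCs, 26 were lower and 3 higher, where 18.7% of all genes tested were lower and 21.0% higher, and the median was -0.96 against 0.03. On the TPM scale 28 were lower and 3 higher in fBM-MSCs, and the split of all genes turned from 2632 higher and 2338 lower to 2380 higher and 2812 lower. The 2 comparisons share all libraries, and 19 genes were on both lists, that is 19 of the 23 higher in A-MSCs and 19 of the 26 lower in fBM-MSCs. The list was drawn up with earlier results of these libraries known. On the TPM scale the median of all genes was itself shifted by -0.12 in A-MSCs, with that of the set at 0.50, and the split of all calls was 1354 higher and 2558 lower, with 23 and 2 for the set, where the count model gave 1998 higher and 1738 lower over all genes.

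Among the genes of the set with the largest differences in A-MSCs, 2 act on the myosin light chain. Ppp1r14a, an inhibitor of the myosin phosphatase, was 33.8, 22.2 and 20.6 TPM in A-MSCs, 5.25 and 3.33 TPM in vBM-MSCs, 1.03, 2.03 and 2.92 TPM in P-MSCs and at most 1.11 TPM in fBM-MSCs (A-MSC log2 difference 4.29 ± 0.61, edgeR adjusted p = 0.000494). Mylk, the kinase that phosphorylates the light chain, was 64.8, 55.1 and 53.4 TPM in A-MSCs and 1.58 to 7.51 TPM in all other libraries (3.54 ± 0.31, adjusted p = 1.74e-05). Both rose in the source in which the myosin genes Myh11 and Myl9 had their highest means.

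Ppp1r12b, a subunit of the myosin phosphatase, did not pass the test in A-MSCs (0.48 ± 0.36, edgeR adjusted p = 0.346). Kcnmb1, a subunit of the calcium-activated potassium channel, was 3.93 to 5.72 TPM in A-MSCs and at most 0.53 TPM elsewhere (4.005 ± 0.43, adjusted p = 7.38e-05). Pdlim3, an actin-associated LIM protein, was 3.0 to 4.30 TPM against at most 0.48 TPM elsewhere (5.54 ± 0.72, adjusted p = 0.000275). Mrvi1 and Gucy1b3, which belong to the relaxing cyclic GMP pathway, rose by 2.58 ± 0.37 (adjusted p = 0.000511) and 2.34 ± 0.72 (adjusted p = 0.0306) by the edgeR test. Fbxl22, an F-box protein of muscle, rose by 3.18 ± 0.68 (adjusted p = 0.00525). Aoc3, an amine oxidase found on both smooth muscle and fat cells, was 1.54 to 3.08 TPM in A-MSCs, 0.21 and 0.13 TPM in vBM-MSCs, at most 0.05 TPM in P-MSCs and at 0 in fBM-MSCs (adjusted p = 9.09e-05). Lower in A-MSCs were 2 genes, Synm, an intermediate filament protein (-3.97 ± 0.75, adjusted p = 0.00265), and Itga8, an integrin chain (-2.01 ± 0.48, adjusted p = 0.00975).

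In fBM-MSCs the falls included Fbxl22 (-5.49 ± 1.08, edgeR adjusted p = 0.002), Pdlim3 (-5.06 ± 1.18, adjusted p = 0.00559), Ppp1r14a (-3.99 ± 0.91, adjusted p = 0.00472), Mrvi1 (-3.42 ± 0.51, adjusted p = 0.00032), Itga8 (-2.51 ± 0.50, adjusted p = 0.0023), Csrp1 (-2.28 ± 0.22, adjusted p = 1.82e-05), Fhl1 (-2.07 ± 0.54, adjusted p = 0.0102) and Aoc3 (adjusted p = 0.00221). Fhl1, another LIM protein, was 115, 120 and 10.8 TPM in fBM-MSCs, with replicate 3 far below its group. The 3 genes that were higher in fBM-MSCs were Kcnma1, the pore of the potassium channel (0.27 to 1.66 TPM), Synm (1.49 to 3.35 TPM) and Itga7, a laminin receptor chain (2.57 to 4.86 TPM). Kcnma1 thus stood highest where Kcnmb1, its partner subunit, did not.

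**Figure D3:**
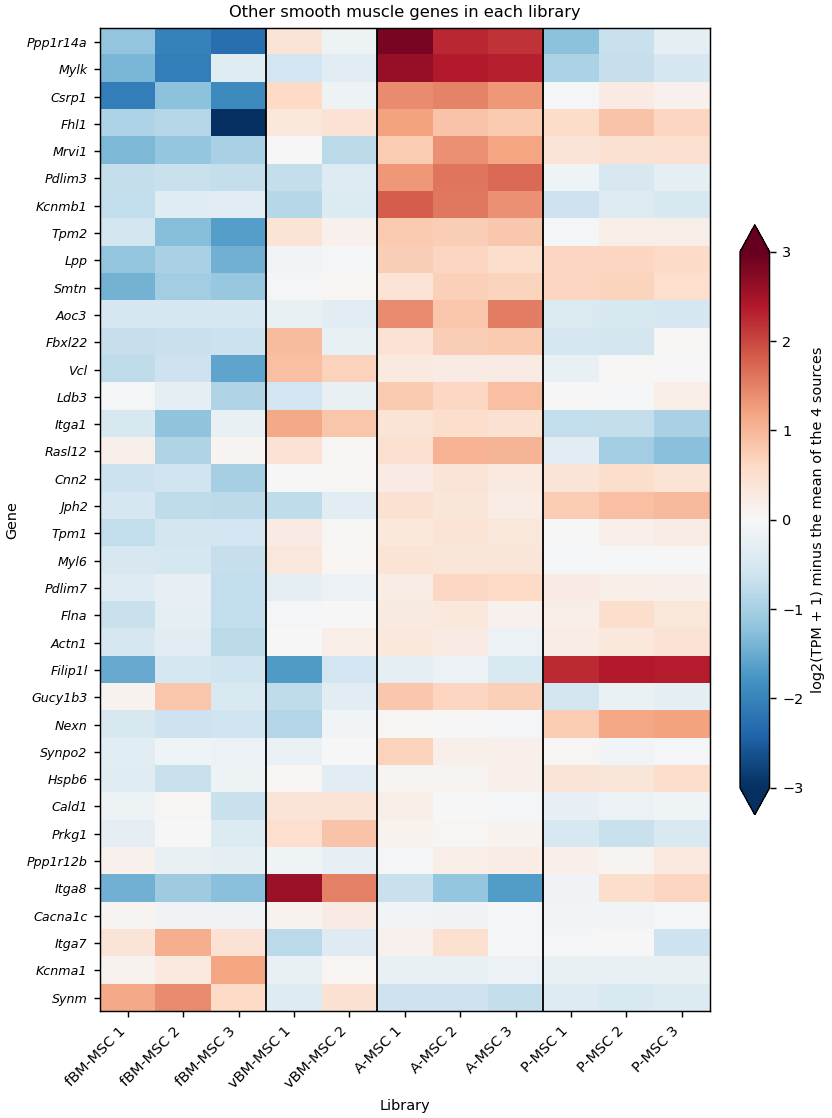
Level of the tested genes of the wider smooth muscle set, all but 1 of them, in each library, as log2(TPM + 1) minus the mean of the 4 sources; red is above and blue below that mean, colours are capped at 3 in either direction, and genes are ordered by A-MSC minus fBM-MSC. In the whole set 23 genes were called higher in A-MSCs and 26 lower in fBM-MSCs, and Filip1l, Nexn and Jph2 stand out in P-MSCs.

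In P-MSCs 9 genes of the set were higher and 6 lower, where 22.3% of all genes tested were higher and 22.3% lower (median -0.02, and -0.01 for all genes tested), and without P-MSC replicate 1 or replicate 2, 3 were lower. On the TPM scale 10 were higher and 9 lower, and the split of all genes tested was 3691 higher and 2400 lower, where the count model gave 2789 and 2794. Filip1l, a filamin-interacting protein, was 58.7, 65.1 and 64.3 TPM in P-MSCs and 2.89 to 10.3 TPM elsewhere (3.10 ± 0.23, edgeR adjusted p = 1.87e-06). Nexn, an actin-binding protein, and Jph2, which ties the plasma membrane to calcium stores, were higher by 1.34 ± 0.14 (adjusted p = 2.56e-05) and 1.32 ± 0.15 (adjusted p = 4.57e-05). Kcnma1 was called lower, with all P-MSC libraries at 0 and fBM-MSCs at 0.27 to 1.66 TPM (adjusted p = 0.0359). Itga1, Rasl12 and Prkg1 were lower, with log2 differences of -1.82 ± 0.37 (adjusted p = 0.00203), -1.63 ± 0.42 (adjusted p = 0.00853) and -1.48 ± 0.23 (adjusted p = 0.00037). The other falls were Mylk (-1.19 ± 0.35, adjusted p = 0.0169) and Cald1, caldesmon (-0.38 ± 0.12, adjusted p = 0.0257).

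In vBM-MSCs 8 genes were higher and 4 lower, where 12.6% of all genes tested were higher and 9.49% lower. Without vBM-MSC replicate 1, 4 were higher and 1 lower, and on the TPM scale 6 were higher and 6 lower. Itga8 was 22.8 and 10.4 TPM in vBM-MSCs and at most 5.21 TPM elsewhere (3.66 ± 0.41, edgeR adjusted p = 0.00012), and Vcl, vinculin of focal adhesions, was 299 and 255 TPM against 51.9 to 194 TPM (1.04 ± 0.18, adjusted p = 0.00207). Fbxl22 (2.67 ± 0.73) and Itga1 (1.79 ± 0.34) were also among the genes called higher. The 4 lower genes were Filip1l (-1.61 ± 0.32), Itga7 (-1.42 ± 0.42), Jph2 (-0.92 ± 0.20) and Nexn (-0.67 ± 0.18). When both marrow sources were set against both others, 25 genes of the set were lower and 3 higher, where 22.4% of all genes tested were lower and 24.8% higher.

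Of the 31 regulators of the smooth muscle program on the list, 29 passed the filter and 21 differed among the sources, where 60.6% of all genes tested did. Srf was 7.19, 7.57 and 7.71 TPM in A-MSCs, 7.52, 7.25 and 5.98 TPM in P-MSCs, 3.68 and 4.03 TPM in vBM-MSCs, and 2.54, 2.54 and 2.97 TPM in fBM-MSCs. Its log2 difference was 0.98 ± 0.12 in A-MSCs (edgeR adjusted p = 0.000221), 0.57 ± 0.13 in P-MSCs (adjusted p = 0.00341) and -1.09 ± 0.14 in fBM-MSCs (adjusted p = 0.000115). Srf was thus lower in vBM-MSCs than in P-MSCs in every library, the reverse of the order of Acta2. Mrtfa, listed as Mkl1, was higher in P-MSCs (24.4 to 26.4 TPM against 11.6 to 19.5 TPM; 0.64 ± 0.13, adjusted p = 0.00248). Mrtfb, listed as Mkl2, did not pass the test among the sources (2.39 to 5.40 TPM, adjusted p = 0.135).

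Klf4, which represses contractile genes in smooth muscle cells, was lower in A-MSCs (5.01, 5.48 and 3.98 TPM; -0.63 ± 0.18, edgeR adjusted p = 0.0238) and higher in vBM-MSCs (10.8 and 8.99 TPM; 0.62 ± 0.19, adjusted p = 0.0403). Tcf21, known from the progenitors of visceral and coronary mesenchyme, was 3.82 to 4.85 TPM in A-MSCs, 0.24 to 1.44 TPM in P-MSCs and at 0 in all 5 marrow libraries. Foxf1, a factor of lung and gut mesenchyme, was 20.4, 21.5 and 21.2 TPM in P-MSCs, 12.7 and 6.24 TPM in vBM-MSCs and at most 2.74 TPM in the others (P-MSC difference 2.97 ± 0.35, adjusted p = 5.2e-05). Gata4 passed the test in both P-MSCs (1.14 to 1.91 TPM; 4.03 ± 0.75, adjusted p = 0.00118) and A-MSCs (0.16 to 1.43 TPM; 2.87 ± 0.76, adjusted p = 0.0149), against at most 0.05 TPM in marrow. Mef2c, a muscle transcription factor, was 2.65 TPM or more in each fBM-MSC library and at most 1.94 TPM elsewhere (3.14 ± 0.47, adjusted p = 0.000336). In total 10 regulators were higher and 6 lower in P-MSCs, 9 and 6 in A-MSCs, and 5 and 7 in fBM-MSCs. Over all genes tested, 44.6% passed in either direction in P-MSCs, 29.9% in A-MSCs, 39.7% in fBM-MSCs and 22.1% in the vBM comparison, where 6 regulators were higher and 3 lower.

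Chromatin accessibility is a second readout on the same cultures, in 1 pooled peak list per source and so with no spread between replicates. A promoter summit was counted where the peak list held a summit with a -log10 q of at least 7 within 1 kb of the gene's RefSeq start site. It was found for 3 of the 10 genes in fBM-MSCs, against 87.1% of all tested genes with such a start site, and for 6 in vBM-MSCs, against 89.0%. In A-MSCs 8 genes had one, against 89.6%, and in P-MSCs 7, against 88.8%. The fBM-MSC count depends on the threshold: with all summits of the lists it was 7 of 10, where 92.9% of all tested genes with a start site had one. At that setting it was 10 for A-MSCs (93.9%) and 8 for both vBM-MSCs (93.6%) and P-MSCs (93.1%). The 3 genes with a promoter summit in all 4 sources were Acta2, Tagln and Myh11, against 83.1% of the 12056 tested genes with a start site.

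The highest promoter summit of Acta2 had a fold enrichment over background of 31.3 in A-MSCs, 22.8 in P-MSCs and 22.4 in vBM-MSCs, but 9.93 for the fBM-MSC list. For Tagln it was 26.5, 16.6, 19.5 and 7.73 in this order of sources, and that of Myh11 16.9, 10.7, 6.99 and 6.25. The Cnn1, Lmod1 and Myl9 promoters had summits of 16.9, 14.0 and 17.3 in A-MSCs, of 10.3, 9.20 and 8.83 in P-MSCs and of 5.52, 6.99 and 11.4 in vBM-MSCs, and none above the threshold in fBM-MSCs. Fold enrichment moved in steps of 0.368 in each of the 4 lists. Among genes with a summit the median ran from 14.3 for the fBM-MSC list over 15.8 (vBM-MSC) and 16.2 (A-MSC) to 16.9 for the P-MSC list.

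Of the 9 genes with a promoter summit in any source, 8 had their highest in A-MSCs, against 26.4% of the 11230 tested genes with such a summit, and 6 had their lowest, or none, in fBM-MSCs alone, against 46.6%. The exception was Prdm6, whose promoter summit passed the threshold in P-MSCs, at 8.46, and in no other source. With all summits of the lists, A-MSCs had a promoter summit at all 10 genes, Prdm6 included. A highest summit in P-MSCs was found for 40.2% of the tested genes with a promoter summit in any source. Actg2 and Myocd had a summit above the threshold in A-MSCs alone, at 5.89 and 6.25. Both values were near 5.52, the lowest enrichment that passed the threshold at any of the 10 promoters. Des had none above the threshold, although its mRNA was 163 to 245 TPM in A-MSCs. In the wider smooth muscle set, between 24 and 26 of 35 genes with a start site had a promoter summit in each source. The shares of all tested genes were 87.1% to 89.6%. Of the 29 with a summit in any source, 9 were highest in A-MSCs, against 26.4% of all such genes. Lowest or absent in fBM-MSCs were 14 (46.6%), and highest in P-MSCs were 13 (40.2%). Mylk had its highest mRNA in A-MSCs, but promoter summits only in fBM-MSCs (15.5) and vBM-MSCs (7.36).

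**Figure D4:**
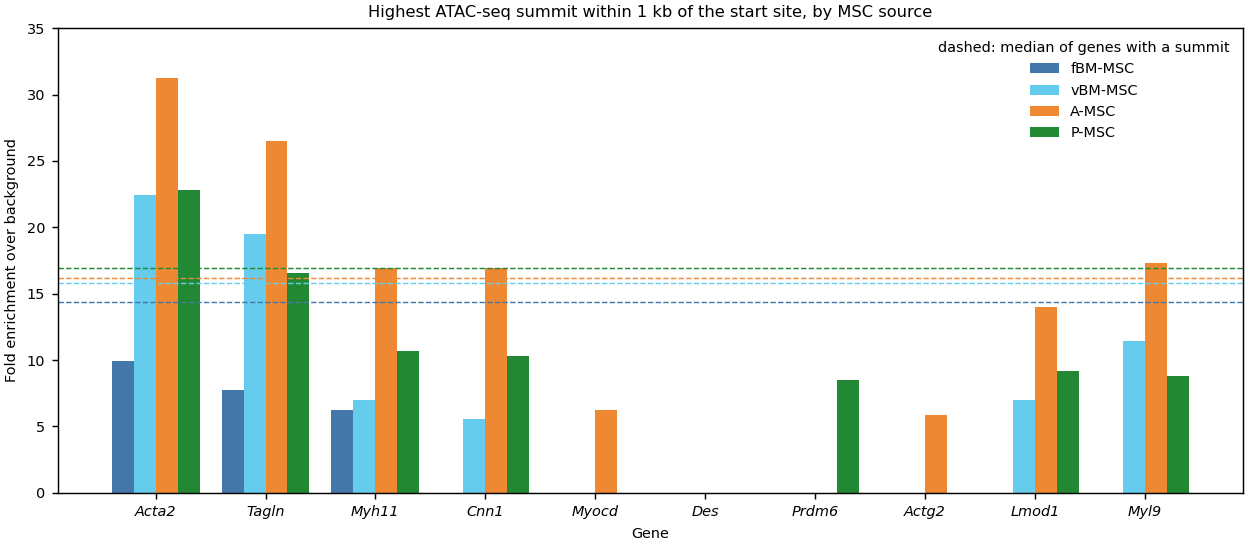
Fold enrichment of the highest ATAC-seq summit within 1 kb of the start site of each gene, by MSC source; bars start at 0, a missing bar means that no summit passed a -log10 q of 7, and dashed lines are the medians over genes with a summit (14.3 to 16.9). The A-MSC bar is the highest for Acta2 (31.3), Tagln (26.5) and the other genes with a bar, except Prdm6, whose 1 bar is P-MSC (8.46).

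The sequences beside these summits are shown for the 4 genes with a RefSeq promoter entry and a summit, as the 250 bases before the start site on GRCm38.p6 (mm10), read 5′ to 3′ in the direction of the gene. Capitals mark matches to the CArG box with at most 1 base off. The windows are chr19:34255374-34255623 on the minus strand for Acta2, chr9:22099003-22099252 on the plus strand for Cnn1, chr1:135324563-135324812 on the plus strand for Lmod1 and chr2:156775214-156775463 on the plus strand for Myl9.
Acta2: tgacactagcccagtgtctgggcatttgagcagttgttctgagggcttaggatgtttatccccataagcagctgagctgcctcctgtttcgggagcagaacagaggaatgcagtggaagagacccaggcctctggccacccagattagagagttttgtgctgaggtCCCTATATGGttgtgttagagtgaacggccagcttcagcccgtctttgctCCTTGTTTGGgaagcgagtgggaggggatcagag
Cnn1: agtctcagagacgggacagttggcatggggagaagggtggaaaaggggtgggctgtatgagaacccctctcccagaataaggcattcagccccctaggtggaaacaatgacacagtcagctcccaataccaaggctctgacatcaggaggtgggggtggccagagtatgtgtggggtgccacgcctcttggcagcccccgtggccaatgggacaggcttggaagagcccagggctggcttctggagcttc
Lmod1: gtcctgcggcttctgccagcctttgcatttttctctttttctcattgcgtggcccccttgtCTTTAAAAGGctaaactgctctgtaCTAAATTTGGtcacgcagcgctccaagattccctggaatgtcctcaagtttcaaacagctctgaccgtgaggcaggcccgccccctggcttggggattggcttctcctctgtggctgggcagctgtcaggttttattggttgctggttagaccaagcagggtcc
Myl9: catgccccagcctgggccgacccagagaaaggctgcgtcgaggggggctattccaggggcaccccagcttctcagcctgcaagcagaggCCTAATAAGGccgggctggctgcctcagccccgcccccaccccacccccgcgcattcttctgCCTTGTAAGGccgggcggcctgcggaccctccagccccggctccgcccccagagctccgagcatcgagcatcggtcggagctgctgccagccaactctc

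Both strands were searched. A full CArG box was found in 1 of the 5 genes with an entry (Myl9, bases -161 to -152 from the start site), against 1.47% of 32841 promoter entries of the same length. A match with at most 1 base off, which includes the full boxes, was found in 3 of 5, against 18.6% of all entries. The 2 in Acta2 lay at -84 to -75 and at -34 to -25, on either side of the A-MSC summit at -57. Those of Lmod1 lay at -189 to -180 and -164 to -155, with the highest summit at -135, and the second of Myl9 at -99 to -90, with the highest summit at -260, just before the window. The highest Cnn1 summit lay at -36. In the Des window, at chr1:75360042-75360291 on the plus strand, and in that of Cnn1 none was found. The hexamer CATTCC, the core read by Tead factors, was found in the windows of Acta2 and Lmod1, against 12.6% of all entries. For Tagln, Myh11, Myocd, Prdm6 and Actg2 no promoter entry was used.

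Around the genes, within the gene body and 20 kb on either side, summits of the 4 lists merged into 84 regions. Only summits with a -log10 q of at least 7 were used. Of these 64 (76.2%) had a summit in A-MSCs, 47 (56.0%) in P-MSCs, 40 (47.6%) in vBM-MSCs, against 31 (36.9%) for the fBM-MSC list. Over all 89849 merged regions of chromosomes 1 to 19 the shares were 65.4%, 60.2%, 55.1% and 61.6%. A summit in A-MSCs only was found in 21 of the 84 regions, against 9.50% of all regions. Those in fBM-MSCs only were 2 (2.38%, against 11.4%), in vBM-MSCs only 6 (7.14%, against 6.80%) and in P-MSCs only 10 (11.9%, against 7.77%). All 4 lists shared 21 regions, against 32.0% of all regions. Regions were taken by position alone, so they can include parts of neighbouring genes.

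At Acta2 (chr19:34240336-34255373, minus strand), 9 regions were found, 8 of them in A-MSCs and 2 in fBM-MSCs. Beside the promoter, a region upstream, at -10514 bases from the start site, was found in all 4 sources, at 23.5 in A-MSCs, 21.0 in vBM-MSCs, 20.6 in P-MSCs and 8.83 in fBM-MSCs. A region 14707 bases into the gene, in an exon, was at 19.5 in A-MSCs, at 9.20 for vBM-MSCs and at 6.99 for P-MSCs. It had no summit above the threshold in fBM-MSCs. At Tagln (chr9:45929628-45936058, minus strand) 10 of 11 regions were found in A-MSCs, and 6 of them only there. At Des (chr1:75360292-75368579, plus strand) all 8 regions were found in A-MSCs and 4 in each other source, the highest being at -12749 bases from the start site, with 26.9 in P-MSCs, 23.5 in A-MSCs, 12.5 in fBM-MSCs and 11.04 in vBM-MSCs. At Myocd (chr11:65176561-65269989, minus strand) the sources were alike, with 4 to 6 of 7 regions each.

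Prdm6 (chr18:53464546-53575857, plus strand) had the opposite map, with 11 of 12 regions in P-MSCs and 9 of them only there. The other sources had 2 (vBM-MSCs), 1 (A-MSCs) and 1 (fBM-MSCs). The highest of the 12 lay in an intron 7867 bases after the start site, at 15.8, followed by another intronic region at 4962 bases, at 12.9. Both passed the threshold in P-MSCs alone. No region of Prdm6 was shared by all 4 sources, while 21 of the 84 were. Thus 9 of the 10 regions found in P-MSCs only, over all 10 genes, were at Prdm6.

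**Figure D5:**
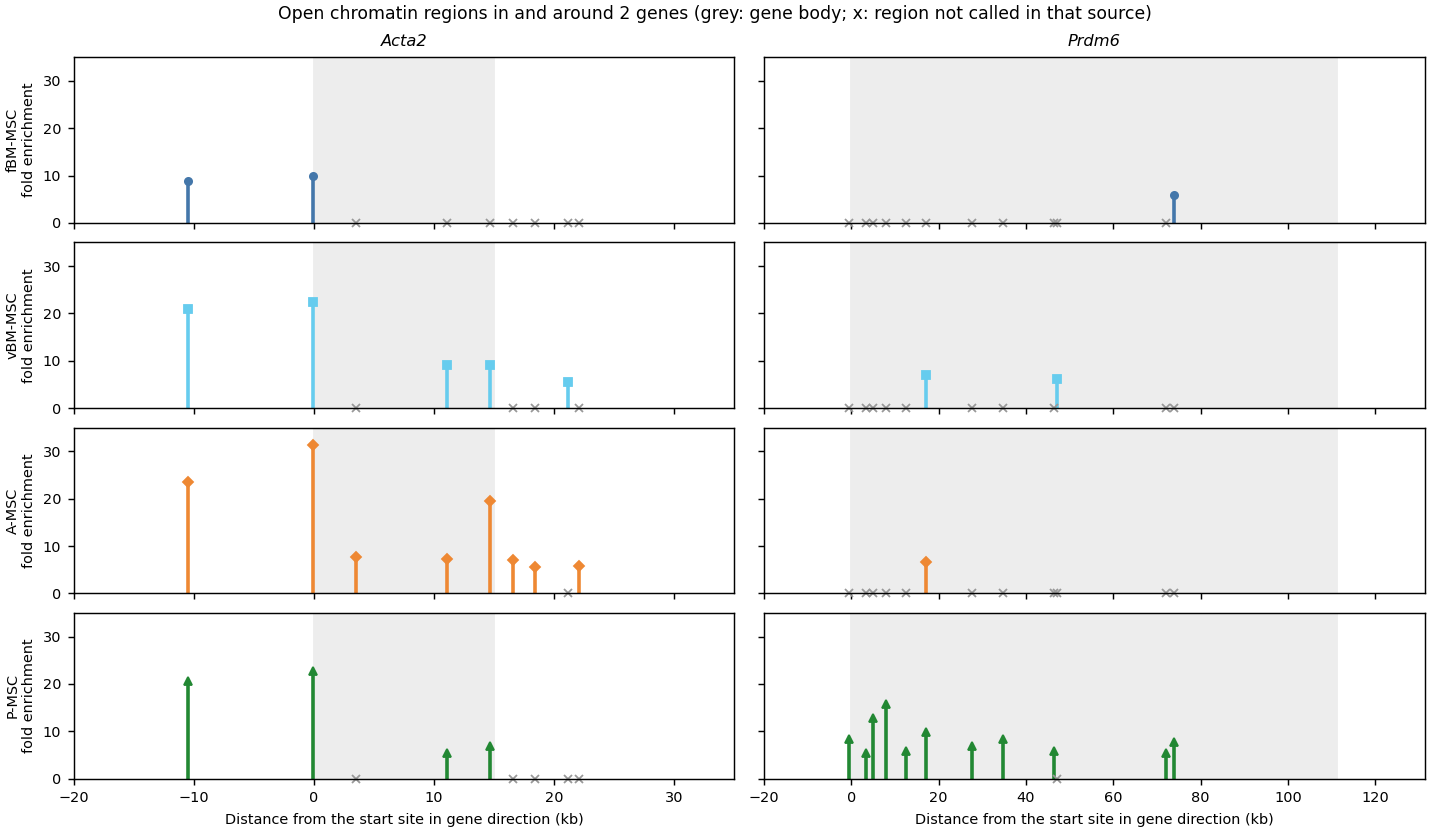
Fold enrichment of the merged ATAC-seq regions in and around Acta2 and Prdm6 by distance from the start site in kb, in the direction of the gene, with 1 row per MSC source. Grey marks the gene body and a cross a region with no summit at a -log10 q of at least 7 in that source. Acta2 has 8 regions in A-MSCs and 2 in fBM-MSCs, Prdm6 11 in P-MSCs and at most 2 in the other sources.

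Markers of other cells were read beside these results. The 6 MSC surface genes, led by Itgb1 (466 to 1051 TPM), were detected in all libraries. Of 13 mural cell (pericyte) genes, 8 passed the filter, and their list summed to 129 to 160 TPM in vBM-MSCs, 71.3 to 74.3 in A-MSCs, 54.1 to 65.1 in fBM-MSCs and 31.3 to 33.7 in P-MSCs. Pdgfrb had the highest mean of the list, and in A-MSCs Mcam (21.45 to 33.25 TPM) was close to Pdgfrb (32.85 to 37.65 TPM). In vBM-MSCs 6 of the 8 were higher and none lower, led by Gja4 (5.52 ± 1.14, edgeR adjusted p = 0.00551), where 12.6% of all genes tested were higher. In P-MSCs 5 were lower and none higher, where 22.3% of all genes tested were lower. In A-MSCs 2 were lower (13.9% of all genes tested), Rgs5 (-7.41 ± 2.46, edgeR adjusted p = 0.0481) and Cspg4 (-2.69 ± 0.29, adjusted p = 7.58e-05). The 1 higher (16.0%) was Mcam, an adhesion molecule (2.26 ± 0.35, adjusted p = 0.000749). In fBM-MSCs 3 were higher (21.0% of all genes tested), Rgs4 (1.81 ± 0.56, edgeR adjusted p = 0.0241), Notch3 (1.75 ± 0.43, adjusted p = 0.00691) and Cspg4 (0.82 ± 0.23, adjusted p = 0.0162). The 1 lower (18.7%) was again Mcam (-2.88 ± 0.45, adjusted p = 0.000458). In these 2 sources Mcam was called in the same directions as many genes of the wider smooth muscle set. The other mural genes called there went the opposite way. Higd1b was at 0 throughout. The 19 myofibroblast genes, of which Thbs1 had the highest mean over all libraries, summed to 8546 to 9408 TPM in vBM-MSCs and 6650 to 6966 in fBM-MSCs. The sum was 5124 to 5614 in A-MSCs and 4497 to 4902 in P-MSCs, an order that differs from that of Acta2. By the edgeR test 10 were higher and 1 lower in vBM-MSCs (12.6% and 9.49% of all genes tested). In fBM-MSCs 10 were higher and 5 lower (21.0% and 18.7%). In A-MSCs 5 were higher and 6 lower (16.0% and 13.9%), and in P-MSCs 2 and 11 (22.3% and 22.3%).

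In A-MSCs, the source with most of the contractile mRNAs, 6 mesothelial genes summed to 51.6 to 56.6 TPM against at most 3.33 TPM elsewhere, with Krt8, the highest of them, at 11.1 to 21.0 TPM there and at most 0.24 TPM elsewhere. The 7 endothelial genes summed to 3.53 to 55.5 TPM in A-MSCs, of which Emcn was 49.5 TPM in replicate 1. The 9 macrophage genes summed to 45.2 to 71.9 TPM in fBM-MSCs and at most 54.0 in others, led by Lyz2, with Ptprc at most at 0.35. Of the 14 skeletal muscle genes, 8 including Myod1, Myog and Pax7 were at 0 in all libraries, and the list summed to at most 3.32 TPM. The cardiac genes Myh6 and Myh7 were at 0, while the list summed to 22.8 to 24.8 TPM in P-MSCs, nearly all Tnnt2. Of the 8 epithelial genes, Sftpc was at 0, and the list summed to 52.6 to 60.6 TPM in P-MSCs, mostly Krt19, to 30.6 to 46.3 TPM in A-MSCs, with Krt19 at 17.1 to 18.9 and Krt18 at 11.1 to 27.05 TPM, and to at most 12.9 TPM in marrow libraries. The part of such cells in the levels of the smooth muscle genes was not tested.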

How the data were processed

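RNA-seq libraries were counted by the authors with RSEM and STAR against mm10, and the deposited gene tables hold expected counts, which are estimated counts that need not be whole, and TPM as RSEM gave it. ATAC-seq reads were trimmed by the authors with Trim Galore, aligned with Bowtie, removed duplicates with Picard, shifted reads for Tn5 and called peaks with MACS2; each deposited list holds, per summit, a fold enrichment and a −log10 q. Tool versions were not given in the sources used here. Replicates were pooled per source. The lists of summits carry no depth.

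Expected counts were rounded and fitted in edgeR 4.0.16 (R 4.3.3) with TMM scaling and the quasi-likelihood test across 12509 genes and all 11 libraries, each source against the mean of the other 3, with Benjamini-Hochberg adjustment and a threshold of 0.05. The fit was tested on simulated data. Totals were 19569650 to 40517739. Alternatives were DESeq2 1.42.0, limma 3.58.1 on log2(TPM + 1), RLE factors, no filter, a replicate block and each library left out. The 10 genes and the lists were chosen with earlier results of these data known. Genes were named by a rule: the 10 genes, other actins, the PR domain family, Srf, Mrtfa, Mrtfb, Klf4, up to 10 (wider smooth muscle set) or 5 (other lists) called genes with the largest difference, the 5 most like Acta2 and Prdm6, overlapping genes and the highest gene of each marker list. Genes outside it (Itga7, Cald1, Ppp1r12b, Krt18, and markers at or near 0) were named after their values were seen. Promoter sequences and start sites are RefSeq on GRCm38.p6; 5 of the 10 genes matched an entry. P-values measure the spread between libraries, and the libraries came from shared mice. Results for some genes and for 1 list are not reported here.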

Additional observations from a re-analysis of the deposited data

How the results depend on the processing

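Of 1036 values recomputed under the alternatives for 68 results, 1001 moved by less than the limit set for them, and 35 moved by more. The limit was a fixed ratio for a count. For a fitted difference it was the spread of that gene within sources, so a gene that varied more had a wider limit. Of 40 fitted differences of the 10 genes, which carry no call, 7 changed sign under some alternative: Tagln and Des in P-MSCs, Cnn1 in vBM-MSCs (0.34, and -0.51 without vBM-MSC replicate 1), and Myocd and Prdm6 in both marrow sources (Prdm6 in fBM-MSCs -1.08, and 1.58 without vBM-MSC replicate 2, and in vBM-MSCs -0.86, and 1.011 without A-MSC replicate 3). On log2(TPM + 1) the calls over all genes in A-MSCs turned from 1998 higher and 1738 lower to 1354 and 2558. Leaving out single libraries moved these counts. The smooth muscle genes lower in P-MSCs ranged from 3 to 7 (6 as reported), with 3 without P-MSC replicate 1 or replicate 2. All genes lower in A-MSCs ranged from 1145 (without A-MSC replicate 3) to 1952 (1738 as reported). In vBM-MSCs, all genes higher ranged from 861 to 1776 (1578) and lower from 643 to 1395 (1187), and the smooth muscle genes from 4 to 10 higher (8) and 1 to 6 lower (4), the lowest value of each without vBM-MSC replicate 1. A fit without one vBM-MSC library leaves 1, which is assumed to vary like the other groups. With the replicate number as a block, 5 smooth muscle genes were higher and 5 lower in vBM-MSCs. With that block, 24 were higher in A-MSCs and 26 lower in fBM-MSCs. The sources used here do not tie the numbers to mice. Deviations of 15 same-numbered pairs correlated between -0.037 and 0.175, with a median of 0.037 and 1 over 0.1. Those of 30 pairs with unlike numbers correlated between -0.175 and 0.175, with a median of -0.015 and 1 over 0.1. Of 11 libraries, 6 correlated best with their own number. With all summits of the lists, 7 of the 10 genes had a promoter summit in fBM-MSCs, against 3 at a -log10 q of at least 7, and the share of all tested genes with a start site was 92.9%, against 87.1%. Fitted differences of Prdm6 and Myocd depend on libraries at 0: Myocd in P-MSCs was -7.87 without P-MSC replicate 1. The cause of these moves was not tested. Low counts limit Myocd, Myh11 in fBM-MSCs and Prdm6 outside P-MSCs, and pooled peak lists allow no test between sources.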
